A study of Mus musculus with 3 samples.

Results

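The Hox gene clusters of the mouse were followed in chromatin of embryonic fibroblasts, in 3 sequencing libraries of a study of the transcription factor family nuclear factor I (NFI). The members are 38 of the 39 Hox genes of the annotation, out of 22225 protein-coding genes in all, and the 4 intervals from the first to the last of these genes. They were chosen by name and position, not by a measurement. The Hoxa interval held 10 genes from Hoxa2 to Hoxa13 (mm9, chr6:52112350-52210874), and Hoxb 10 genes from Hoxb13 to Hoxb1 (chr11:96055630-96229570). Hoxc held 9 genes from Hoxc13 to Hoxc4 (chr15:102751534-102867274), and Hoxd 9 genes from Hoxd13 to Hoxd1 (chr2:74506367-74603200). In all they spanned 485041 bp.

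The libraries were an NFI chromatin immunoprecipitation (ChIP) of wild-type C57BL/6 mouse embryonic fibroblasts, the same ChIP of NFI-C knock-out fibroblasts, and input DNA of wild-type fibroblasts, sequenced without antibody. Primary cells came from embryos of 14.5 days. The knock-out was made by insertion into the NFI-C gene, and the antibody, NFI (H300), was raised against the NFI group rather than NFI-C alone, so the other NFI proteins of the knock-out cells remain targets of the antibody. For the knock-out library the title and a line of description disagree, the latter naming wild-type cells, and the group was taken from the title. There was 1 library per condition, so no test across samples was possible, and every value describes these libraries. All intervals given are 95% intervals and cover counting error only. Libraries of DNA hold no expression, so the fibroblast label could not be checked against marker genes.

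Hox genes encode homeodomain transcription factors that give cells their position along the body axis and the limbs. Within a cluster the order of the genes follows the order of their domains: groups at the 3′ end act in the hindbrain and neck, those at the 5′ end in the tail, the distal limb and the genital region, and genes of the same group in different clusters are paralogues. The clusters are known targets of Polycomb proteins, which place H3K27me3 on silent genes, while trithorax proteins place H3K4me3 at starts and H3K36me3 follows transcription. Fibroblasts are known to keep the Hox pattern of the place they came from. Here groups 1 to 4 are called anterior, 5 to 8 central and 9 to 13 posterior, with 11, 11 and 16 genes.

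The clusters also hold microRNA genes, of which 5 could be placed on mm9 by their hairpin sequence. Their 5′ arms, from RefSeq on GRCm38.p6, are shown with the seed (bases 2 to 8) in capitals, because the pairs that sit at matching places in different clusters share it.
mmu-miR-10a-5p (Hoxb): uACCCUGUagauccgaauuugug
mmu-miR-10b-5p (Hoxd): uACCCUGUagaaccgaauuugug
mmu-miR-196a-5p (Hoxb and Hoxc): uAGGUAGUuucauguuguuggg
mmu-miR-196b-5p (Hoxa): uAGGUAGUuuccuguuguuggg

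Of the 39807 sites of NFI binding in vivo that the authors deposited, 24 lay in the Hox intervals. Ranked by wild-type tags, and leaving out sites at or above 5 input tags, the 10 leading sites (ties by fewest input tags, then by position) are printed as deposited, 16 bases each on the plus strand, since they are where NFI was placed in these clusters. Names give the cluster, the coordinates on mm9 and the annotation.
Hoxa, chr6:52158531-52158546, Hoxa6 coding exon and Hoxa3 intron: gccggccgggtagagg
Hoxa, chr6:52173146-52173161, Hoxa9 UTR: caatttggtcagtagg
Hoxa, chr6:52190112-52190127, Hoxa10 intron: cactgctttccaacca
Hoxb, chr11:96160289-96160304, Hoxb6 UTR: ttgacaattcctgcct
Hoxb, chr11:96173586-96173601, between Hoxb5 and Hoxb4: agaggtcgcaaagttg
Hoxb, chr11:96210964-96210979, between Hoxb3 and Hoxb2: gatccttggatgctgc
Hoxc, chr15:102775199-102775214, between Hoxc12 and Hoxc11: aatgcaagcatgttat
Hoxc, chr15:102817958-102817973, between Hoxc9 and Hoxc8: ttgccttcggctcagc
Hoxc, chr15:102822878-102822893, Hoxc8 intron: cttatcggcaggaggg
Hoxc, chr15:102861613-102861628, Hoxc4 intron: agaattaaagagaaga

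All 3 libraries were raised over the Hox intervals, the input more than either ChIP. A tag is the 5′ end of a uniquely mapped read, counted at most once per position and strand. The intervals held 868 tags of the wild-type ChIP, 758 of the knock-out ChIP and 1818 of the input, from library totals of 3350071, 3132004 and 4100449. Per base, tags of the wild-type ChIP were at 1.37 times their genome average (1.28 to 1.46), those of the knock-out ChIP at 1.28 (1.19 to 1.37) and those of the input at 2.34 (2.23 to 2.45). In the 100 kb on both sides of each cluster the wild-type ChIP, the knock-out ChIP and the input were at 1.21 (1.14 to 1.28), 1.09 (1.03 to 1.16) and 1.26 (1.20 to 1.33) times the average. Scaled to library totals, the wild-type ChIP over input was 0.584 across the clusters (0.538 to 0.634) and 0.957 in the flanks (0.889 to 1.03). The knock-out ChIP over input was 0.546 (0.501 to 0.594) against 0.867 in the flanks (0.802 to 0.937).

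Base composition differed along with the counts. The clusters had a GC content of 49.3%, the flanks 44.1% and the genome 41.8%. Against the tags expected from 5 kb bins of the same GC content genome-wide, the wild-type ChIP over input rose to 0.816 (0.752 to 0.885) and the knock-out ChIP over input to 0.731 (0.670 to 0.796), both still below 1. Unique mapping was higher in the clusters: from 94.3% (Hoxb) to 99.0% (Hoxa) of their 32-base words were unique. In the flanks 92.6% were, against 83.7% of words sampled from the genome. Fold values over the genome average, taken over all bases other than N, were not corrected for this difference. Those of the clusters and flanks are therefore too high by it, while ratios between libraries share it. Within the clusters each counted tag stood for 2.42 uniquely mapped reads of the wild-type ChIP, 3.11 of the knock-out ChIP and 1.21 of the input. With every such read counted, the wild-type ratio was 0.531.

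The 4 clusters differed in depth of this deficit. Hoxb was nearest to the input, with 320 wild-type tags, 260 of the knock-out and 525 of the input and a wild-type ratio of 0.746 (0.647 to 0.859). Hoxd was farthest, with 143, 141 and 420 tags and a ratio of 0.417 (0.342 to 0.505), which did not overlap that of Hoxb. Hoxa and Hoxc lay between them at 0.554 (0.468 to 0.653) and 0.584 (0.490 to 0.694). After correction for GC content Hoxb reached 1.03 (0.894 to 1.19), Hoxa 0.804, Hoxc 0.789 and Hoxd 0.592 (0.486 to 0.717), so Hoxb was no longer below the input in the wild-type ChIP. The knock-out ChIP over input of Hoxb was 0.860 after correction (0.738 to 0.999). In Hoxb the long stretch between Hoxb13 and Hoxb9, 74.0 kb without a Hox gene of the list, held 110, 91 and 168 tags and a wild-type ratio of 0.801 (0.624 to 1.03). The rest of Hoxb had a ratio of 0.720 (0.604 to 0.856), and the intervals of both overlap.

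The profile in 5 kb bins shows where the input rose. Of 95 full bins, the scaled input was above the wild-type ChIP in 76 (80.0%, against 46.8% of bins genome-wide) and above the knock-out ChIP in 77 (81.1% against 47.8%). The 4 bins with the most input tags lay over Hoxa10 (50 tags, 6.24 times the genome average), Hoxa9 (47), Hoxd8 (46) and Hoxb9 (44). In these bins the wild-type ChIP had 12, 11, 3 and 11 tags, and the knock-out ChIP 7, 8, 7 and 3. These bins were picked by their input tags, so the lower ChIP counts there are a description only. Wild-type bins reached at most 3.82 times the genome average, over Hoxb6, and knock-out bins 3.10 times.

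**Figure D1:**
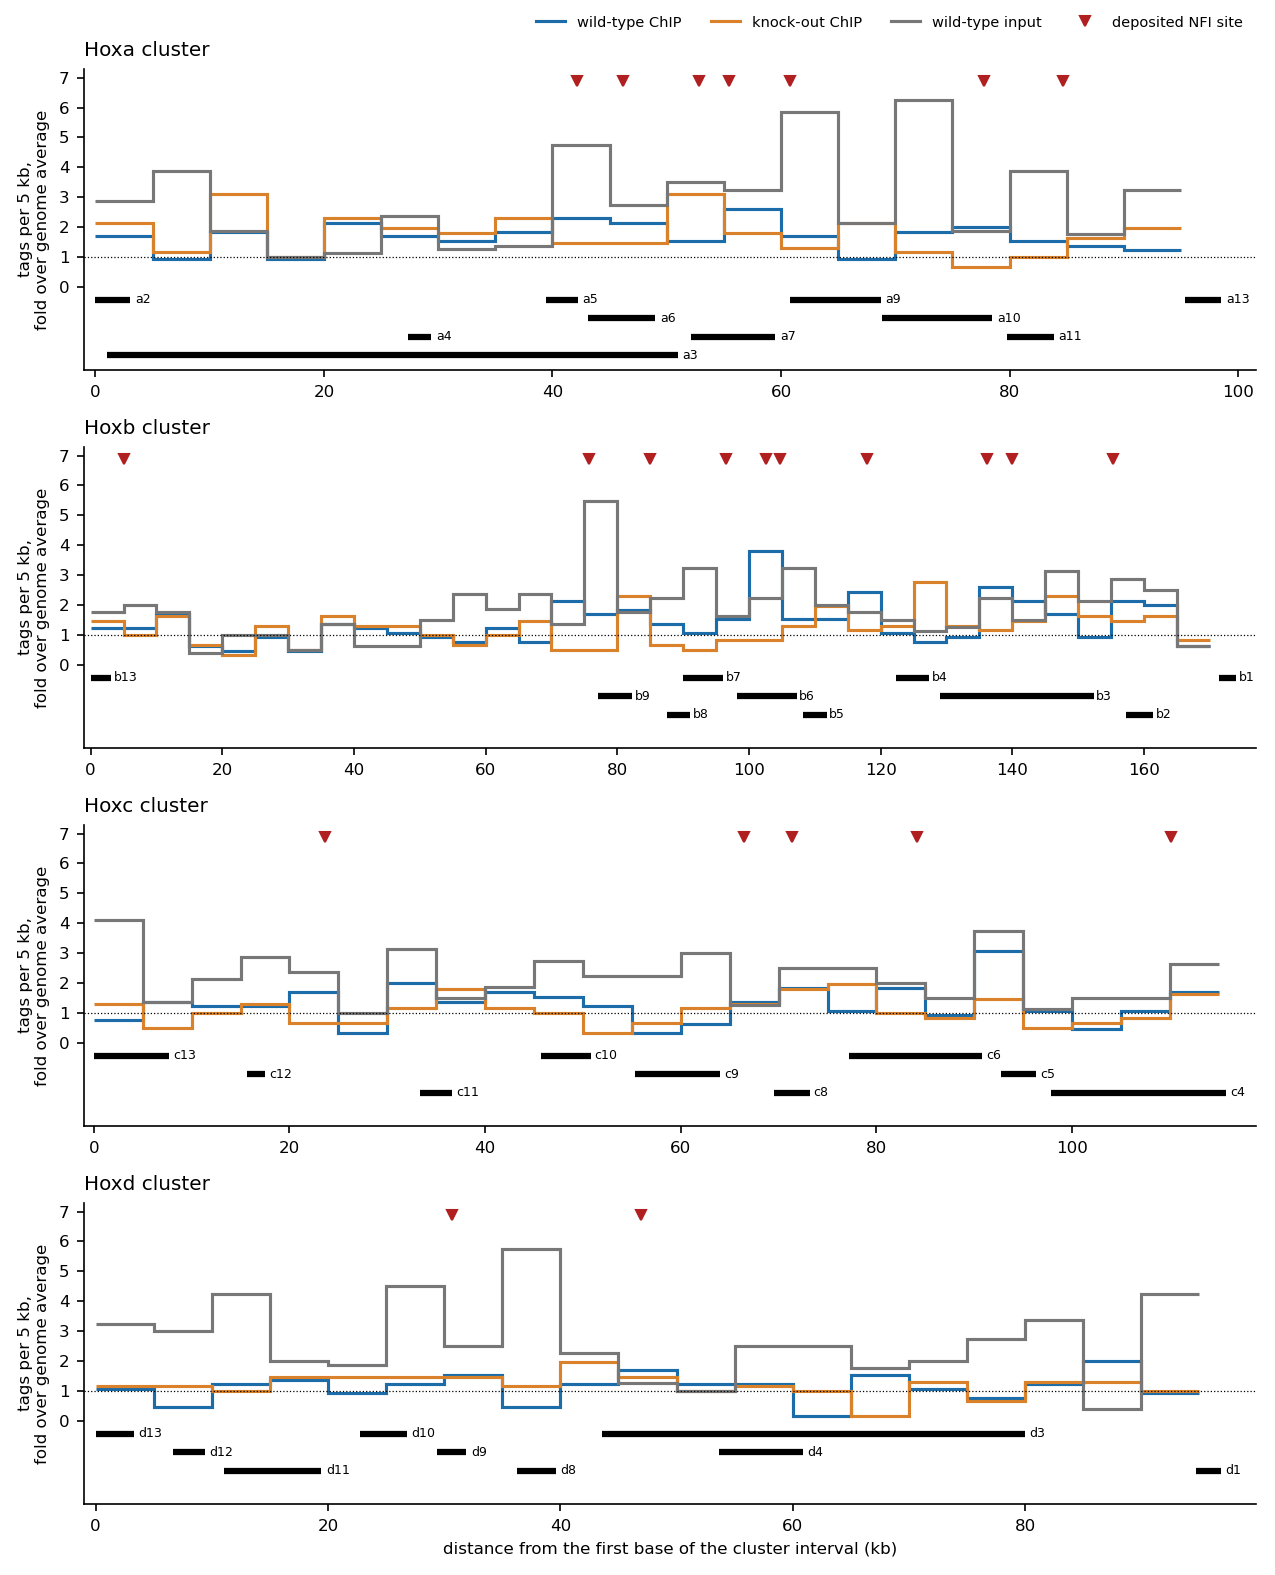
Tags in 5 kb bins along the 4 Hox clusters as fold over the genome average (vertical axis) against distance from the first base of the interval in kb, with genes as black bars and deposited NFI sites as red triangles. The input peaks reach 6.24 times the average over Hoxa10, while no bin of the wild-type ChIP exceeds 3.82 times.

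Gene by gene, the deficit was common to the members. Tags were counted in each gene with 2 kb on both sides, and all 38 genes had at least 20 tags in the wild-type ChIP and the input together. Windows of neighbours overlap, and the annotated Hoxa3 reaches across Hoxa4 to Hoxa6 and Hoxd3 across Hoxd4, so neighbours share tags and are not independent. The wild-type ChIP over input was below 1 divided by 1.5 in 29 of 38 Hox genes (76.3%), against 31.3% of the 18515 genes tested genome-wide. No Hox gene was above 1.5, against 3.77%. The 95% interval lay below 1 in 21 Hox genes (55.3%, against 29.9%) and above 1 in 0 (against 4.6%). In the knock-out ChIP, 28 Hox genes were below 1 divided by 1.5 (against 31.2%) and 0 were above 1.5 (against 4.06%), while the interval lay below 1 in 24 (against 29.4%) and above 1 in 0 (against 4.46%). Both ChIP libraries placed 25 genes below that line, but the share of all genes below it in both was not computed. That count is thus no result about the members. These comparisons share the input library. The median wild-type ratio was 0.539 over Hox genes and 0.829 over all genes tested. After GC correction 12 Hox genes (31.6%) were below the line in the wild-type ChIP, against 16.9% of all genes, and 20 (52.6%) in the knock-out ChIP, against 18.9%.

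Other gene lists give the scale of these medians. Genes that lie, like Hox genes, wholly in both H3K27me3-rich and H3K4me3-rich regions had a median wild-type ratio of 0.572, with 60.4% of 2239 below the line. Dispersed homeobox genes, such as Dlx and Lhx family members, are developmental regulators outside the clusters, and 23 of 27 were below the line, with a median of 0.485. Genes of the TALE cofactors, the Pbx, Meis and Pknox homeodomain proteins that bind DNA together with Hox proteins, had a median of 0.900 with 2 of 9 below. Genes of Polycomb and trithorax proteins had a median of 0.626 with 9 of 16 below. The Hox median thus lay beside those of the other homeobox genes and of genes in the same chromatin regions. After GC correction, 32.3% of genes in both marks were below the line in the wild-type ChIP and 34.4% in the knock-out ChIP. For dispersed homeobox genes these shares were 40.7% and 44.4%. TALE cofactors had 0% and 11.1%, and Polycomb and trithorax genes 18.8% and 25.0%. The Hox share in the wild-type ChIP, 31.6%, was thus not above that of the most similar genes, those in both marks and dispersed homeobox genes. In the knock-out ChIP the Hox share, 52.6%, was above theirs, though Hox windows overlap and are not independent.

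In Hoxa the 6 genes at the 3′ end had higher ratios than all but 1 of the 4 at the 5′ end. Hoxa2, which patterns the hindbrain and the branchial arches, had 22, 28 and 30 tags in the wild-type ChIP, the knock-out ChIP and the input, and a wild-type ratio of 0.898 (0.493 to 1.61), the highest of its cluster. Hoxa3, needed for neck organs such as the thymus, had 126, 137 and 200 tags and a ratio of 0.771 (0.612 to 0.968). Hoxa4 had 12, 12 and 21 tags. Hoxa5, which acts in lung development, had 20, 18 and 37 tags and Hoxa6 28, 22 and 65, with ratios of 0.662 and 0.527. Hoxa7 had 34, 35 and 58 tags (0.718). The lower values began with Hoxa9, known for its role in blood progenitors, with 23, 28 and 72 tags (0.391). Hoxa10 and Hoxa11, which act in the uterus and the limb, had 30, 18 and 80 tags (0.459) and 17, 11 and 38 tags (0.548). Hoxa13, a gene of the distal limb and genital region at the 5′ end, had 7, 9 and 33 tags and the lowest ratio of the cluster, 0.260 (0.0969 to 0.597).

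In Hoxb the extremes were both central genes. In the same order of libraries, Hoxb6 had 41, 15 and 44 tags and the highest ratio of all 38 genes, 1.14 (0.727 to 1.79). Hoxb8, known for its role in a lineage of microglia, had 10, 4 and 40 tags and a ratio of 0.306 (0.136 to 0.623), and Hoxb7 had 19, 8 and 44 (0.529). At the ends of the cluster Hoxb1, which specifies a segment of the hindbrain, had 8, 8 and 27 tags (0.363, 0.142 to 0.821) and Hoxb13, active in the prostate and the tail, 8, 12 and 18 (0.544, 0.205 to 1.31). Between them Hoxb2 had 20, 15 and 39 tags (0.628), Hoxb3 58, 56 and 83 (0.855), and Hoxb4, used to expand blood stem cells, 11, 23 and 21 (0.641). Hoxb5 had 14, 18 and 31 tags (0.553), and Hoxb9 20, 13 and 55 (0.445). The intervals of Hoxb6 and Hoxb8 did not overlap, but both were picked as the extremes of the cluster, so this is a description only.

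In Hoxc the central genes Hoxc5 and Hoxc6 were nearest to the input. Hoxc5 had 25, 12 and 31 tags (0.987, 0.559 to 1.73), and Hoxc6 36, 25 and 61 (0.722). Hoxc8 had 13, 11 and 26 tags (0.612), and Hoxc4, at the 3′ end, 30, 25 and 60 (0.612, 0.381 to 0.964). Hoxc9, which sets the identity of thoracic motor neurons, had the lowest ratio of the cluster with 12, 12 and 51 tags (0.288, 0.140 to 0.548). Towards the 5′ end Hoxc10 had 16, 10 and 31 tags (0.632), Hoxc11 13, 16 and 31 (0.513) and Hoxc12 7, 8 and 27 (0.317). Hoxc13, a gene of hair and nails, had 12, 12 and 46 (0.319, 0.154 to 0.613).

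In Hoxd all 9 genes had a wild-type ratio below 0.7. Hoxd8 had only 4 wild-type tags against 11 of the knock-out ChIP and 48 of the input, and its ratio of 0.102 (0.0267 to 0.279) was the lowest of all 38 genes. Hoxd10, which acts in lumbar motor neurons, had the highest ratio of the cluster with 11, 13 and 20 tags (0.673, 0.291 to 1.47). Hoxd13, the digit gene at the 5′ end, had 7, 8 and 41 tags (0.209, 0.0791 to 0.470), and Hoxd1, at the 3′ end, 10, 10 and 42 (0.291, 0.130 to 0.590). Both ends of Hoxd were thus low. Hoxd3 and Hoxd4, genes of the cervical vertebrae, had 61, 50 and 140 tags (0.533) and 15, 13 and 31 (0.592). Hoxd9 had 10, 11 and 51 tags (0.240), Hoxd11 21, 25 and 59 (0.436) and Hoxd12 10, 9 and 34 (0.360).

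**Figure D2:**
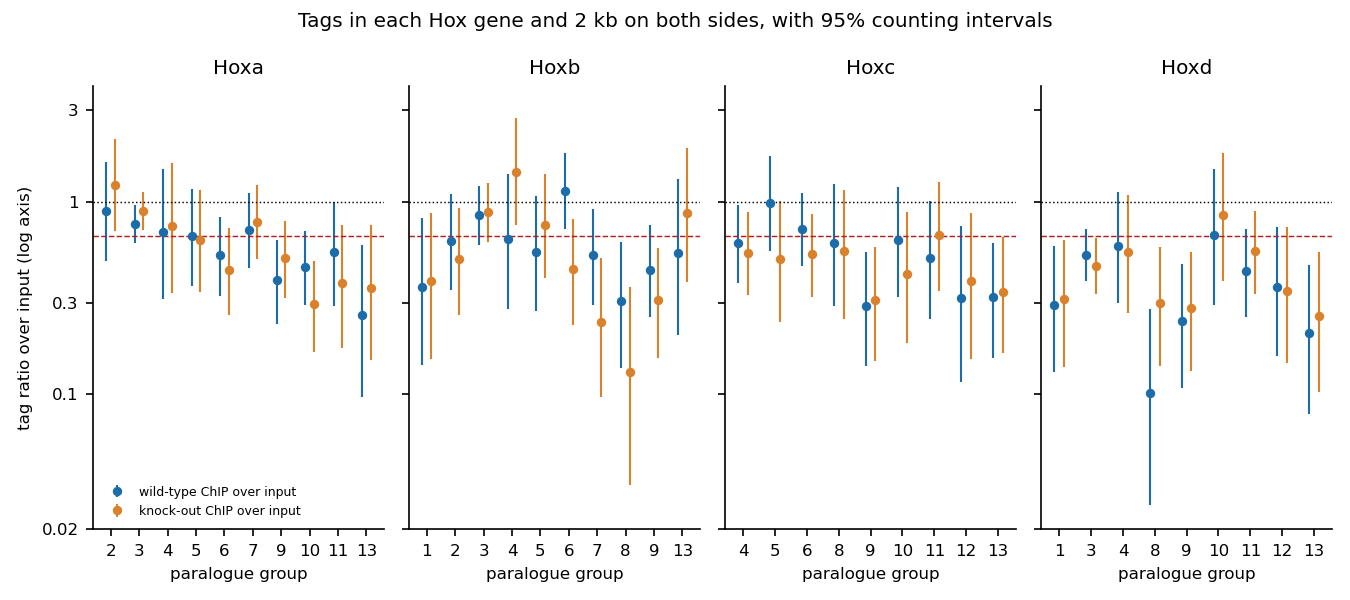
Tag ratio of each ChIP library over the input for the 38 Hox genes with 2 kb on both sides (log axis), by cluster and paralogue group, with bars for 95% counting intervals, a dotted line at 1 and a dashed line at 1 divided by 1.5. No gene lies above 1.5, and Hoxd8 is the lowest in the wild-type ChIP at 0.102.

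Posterior genes lay further below the input than anterior genes. With windows of a class merged, the 11 anterior genes held 323 wild-type tags, 321 of the knock-out and 614 of the input in 172 kb, a wild-type ratio of 0.644 (0.561 to 0.738). The 11 central genes held 206, 153 and 388 tags in 90.4 kb (0.650, 0.546 to 0.771), and the 16 posterior genes 202, 193 and 642 tags in 133 kb (0.385, 0.327 to 0.452). Posterior over anterior was 0.598 in the wild-type ChIP (0.486 to 0.736) and 0.575 in the knock-out ChIP (0.466 to 0.709), with intervals from a normal approximation of the log ratio. After GC correction these were 0.677 (0.550 to 0.834) and 0.644 (0.522 to 0.795). By class, the corrected wild-type ratio was 0.881 in anterior (0.767 to 1.01) and 0.984 in central windows (0.827 to 1.17). Both intervals include 1, so a wild-type deficit was kept only in posterior windows, at 0.596 with an interval below 1. In the knock-out ChIP the corrected ratio was 0.898 in anterior (0.782 to 1.03), 0.743 in central (0.613 to 0.899) and 0.579 in posterior windows. Of the posterior genes 15 of 16 had a wild-type ratio below 1 divided by 1.5 (93.8%). So did 7 of 11 anterior and 7 of 11 central genes (63.6% each), against 31.3% of all genes tested. Since windows overlap, these counts are not of independent genes.

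Pooled over the clusters, input tags were more frequent in posterior windows and ChIP tags less frequent. Per kb, posterior windows held 1.35 times the input tags of anterior windows (1.21 to 1.51), and 0.808 times the wild-type tags (0.675 to 0.967) and 0.777 times the knock-out tags (0.647 to 0.932). By cluster, the input was higher per kb in posterior windows in all 4, from 1.30 to 1.56 times, with an interval that includes 1 in Hoxb. The wild-type tags were at 0.808, 0.899, 0.940 and 0.894 times in Hoxa, Hoxb, Hoxc and Hoxd, all with intervals that include 1, and the knock-out tags at 0.610, 0.794, 1.09 and 1.21 times. For the ratio over input, posterior over anterior in the wild-type ChIP was 0.517 in Hoxa (0.362 to 0.738), 0.693 in Hoxb (0.419 to 1.15), 0.645 in Hoxc (0.381 to 1.09) and 0.683 in Hoxd (0.450 to 1.04). All 4 lay below 1, but only the interval of Hoxa excluded 1. In the knock-out ChIP the values were 0.390 in Hoxa (0.269 to 0.564), 0.612 in Hoxb, 0.748 in Hoxc and 0.923 in Hoxd (0.608 to 1.40), where GC correction took it past 1, to 1.07 (0.706 to 1.63). Without Hoxa the wild-type value was 0.654 (0.506 to 0.845) and the knock-out value 0.719 (0.555 to 0.931). With the bases that windows of different classes share left out, the values were 0.593 and 0.556.

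Annotated transcript starts carried much of the input. Within 500 bp of the Hox starts, 68.5 kb in 63 merged stretches with a GC content of 55.9%, there were 138 wild-type tags, 117 of the knock-out and 494 of the input. The input was at 4.50 times the genome average there (4.11 to 4.91), the wild-type ChIP at 1.54 and the knock-out ChIP at 1.40 times. Starts of all protein-coding genes were alike, with 4.38 times for the input, 1.36 for the wild-type and 1.48 for the knock-out ChIP, so the rise of the input at starts was not particular to Hox genes. In the rest of the intervals there were 730, 641 and 1335 tags, the input stood at 1.99 times the average, and the wild-type ratio was 0.669 (0.611 to 0.733). With GC correction that ratio was 0.915 (0.835 to 1.00), against 0.541 at the Hox starts (0.445 to 0.655) and 0.415 at starts of all protein-coding genes. The correction took the GC content of whole 5 kb bins, not that of the starts. Its expected ratio at the Hox starts was 0.632, while genome bins of 54% to 56% GC were at 0.473. A deficit at starts beyond their own GC content was thus not tested.

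The order of the classes was steepest at the starts. The input rose from 3.20 times the genome average at anterior starts (2.66 to 3.81) to 4.18 at central (3.51 to 4.95) and 6.09 at posterior starts (5.33 to 6.92). The wild-type ChIP was at 1.39, 1.94 and 1.34 times, and the knock-out ChIP at 1.92, 1.56 and 0.719 times. At posterior starts this was 42 wild-type against 21 knock-out tags (0.535, 0.301 to 0.924), and at anterior starts 44 against 57 (1.39, 0.919 to 2.10). Knock-out over wild-type was 0.802 at central starts (0.516 to 1.24) and 0.907 at all Hox starts (0.703 to 1.17). In the rest of the windows it was 1.03 in anterior, 0.751 in central (0.580 to 0.969) and 1.14 in posterior windows (0.909 to 1.42). Posterior starts had the lowest of these values, and posterior windows away from starts went the other way, so this is a description only. GC content at the starts rose from 53.7% in anterior to 54.8% in central and 59.2% in posterior windows. Its part in the input beyond the correction above was not tested. Away from the starts the input was at 1.99, 2.23 and 2.32 times in anterior, central and posterior windows. There the wild-type ratio was 0.704 (0.603 to 0.820) in anterior and 0.477 (0.394 to 0.575) in posterior windows. With GC correction by 5 kb bins these were 0.955 (0.818 to 1.11) and 0.719 (0.594 to 0.867), whose intervals overlap.

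**Figure D3:**
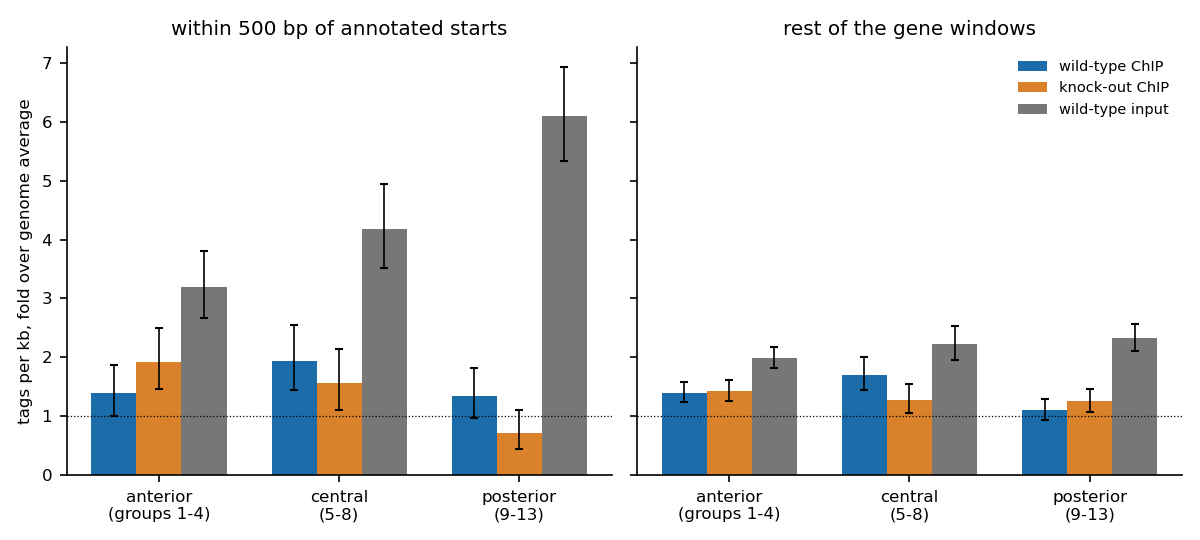
Tags per kb as fold over the genome average in anterior, central and posterior Hox windows, within 500 bp of annotated starts (left) and in the rest of the windows (right), with bars for 95% Poisson intervals. At the starts the input climbs to 6.09 times in posterior windows, while the wild-type ChIP there stays between 1.34 and 1.94 times.

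A pair of Hoxd promoters shows how different the sequence of these starts is. They are printed from 250 bases before to 50 after the start (RefSeq, GRCm38.p6, plus strand), with TTGGC, 5 of the 6 bases of an arm of the NFI palindrome, or its reverse GCCAA in capitals. Hoxd13 was chosen as an end gene with few ChIP tags and Hoxd8 as the gene with the lowest wild-type ratio. The Hoxd13 promoter has a GC content of 74.3% with 37 CpG dinucleotides, and the Hoxd8 promoter 46.7% with 6.
Hoxd13, chr2:74667975-74668274: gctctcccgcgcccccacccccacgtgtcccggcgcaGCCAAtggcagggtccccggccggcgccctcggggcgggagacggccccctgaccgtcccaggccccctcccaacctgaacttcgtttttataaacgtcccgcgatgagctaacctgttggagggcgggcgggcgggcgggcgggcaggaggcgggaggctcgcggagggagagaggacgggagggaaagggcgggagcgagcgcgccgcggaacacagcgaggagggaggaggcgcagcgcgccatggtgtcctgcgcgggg
Hoxd8, chr2:74704365-74704664: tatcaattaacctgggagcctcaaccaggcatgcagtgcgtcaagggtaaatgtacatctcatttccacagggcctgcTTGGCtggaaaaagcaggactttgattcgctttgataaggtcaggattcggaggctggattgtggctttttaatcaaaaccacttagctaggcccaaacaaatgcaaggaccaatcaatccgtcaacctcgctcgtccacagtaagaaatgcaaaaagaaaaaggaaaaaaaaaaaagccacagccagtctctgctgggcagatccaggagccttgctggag
The promoter table held 24 entries for 22 of the Hox genes, with a median GC content of 57.7% and 14.5 CpG, against 52.7% and 7 over all 32851 entries. On either strand TTGGC was in 16 of 24 (66.7%, against 46.7% of all), the full arm TTGGCA in 3 (12.5% against 14.1%), CCAAT, whose reverse shares bases with TTGGC, in 15 (62.5% against 37.4%) and TATAAA in 4 (16.7% against 13.6%). A letter match is no evidence of a site.

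Knock-out over wild-type ChIP was 0.934 across the Hox clusters (0.846 to 1.03), next to 0.906 in the flanks (0.834 to 0.983). The call depended on base composition: with GC correction the clusters were at 0.895 (0.811 to 0.988) and the flanks at 0.893 (0.822 to 0.969), and both intervals exclude 1. By cluster the corrected values were 1.01 in Hoxa and Hoxd, 0.834 in Hoxb (0.705 to 0.985) and 0.790 in Hoxc (0.634 to 0.983). Of the 31 genes with at least 20 tags in both together, 4 were below 1 divided by 1.5 (12.9%, against 9.05% of 17599 genes) and 2 above 1.5 (6.45%, against 10.1%). The 95% interval lay below 1 in 1 gene (3.23%, against 5.78%) and above 1 in 1 gene (3.23%, against 6.06%). These shares are near the background and are no result about the members. The gene below was Hoxb6, 41 wild-type against 15 knock-out tags (0.391, 0.201 to 0.722), and that above was Hoxb4, 11 against 23 (2.24, 1.05 to 5.08).

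By class, knock-out over wild-type was 1.06 in anterior (0.908 to 1.24), 0.794 in central (0.640 to 0.984) and 1.02 in posterior windows, whose interval includes 1. The deposited sites were chosen on the wild-type library, and 10 of the 24 lie in central windows. With 300 bp around each site left out, central windows were at 0.897 (0.714 to 1.12), an interval that includes 1, and all intervals together at 1.00 (0.903 to 1.11). By cluster, central windows were at 0.921 in Hoxa (0.645 to 1.31), 0.757 in Hoxc (0.507 to 1.12) and, in Hoxd, 4 wild-type against 11 knock-out tags of Hoxd8 (2.94, 0.872 to 12.7). The 4 central genes of Hoxb had 65 wild-type and 34 knock-out tags (0.559, 0.358 to 0.860), and 55 and 32 without the sites (0.622, 0.389 to 0.979). Hoxb6, 1 of these 4 genes and picked above for its low value, had 31 and 13 tags without its sites (0.449, 0.215 to 0.882). These are mostly the same tags as before, so this is a description only.

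Deposited NFI sites were denser in the clusters than in the genome. The 24 sites were 7 in Hoxa, 10 in Hoxb, 5 in Hoxc and 2 in Hoxd, together 4.95 per 100 kb (3.17 to 7.36). The genome had 1.56 per 100 kb, the flanks 2.25 (1.33 to 3.56), H3K27me3-rich regions 2.10 and H3K4me3-rich regions 3.52, which lies within the interval of the clusters. Counted per gene window, with sites of overlapping windows counted for each gene, Hox genes had 6.02 per 100 kb and the other genes wholly in both H3K27me3-rich and H3K4me3-rich regions 4.71. At least 5 unshifted wild-type tags in 300 bp were found at 1 of the 24 sites (4.17%), against 11.2% of all deposited sites. For sites with that many tags a higher density in the clusters was not shown. Central windows held 11.1 per 100 kb (5.30 to 20.3), anterior 4.65 (2.01 to 9.17) and posterior windows 4.51 (1.65 to 9.81). A site lay in the window of 18 of 38 Hox genes (47.4%), against 41.9% of all genes, whose windows are longer. These genes were Hoxa3, Hoxa5, Hoxa6, Hoxa7, Hoxa9, Hoxa10, Hoxa11, Hoxb2, Hoxb3, Hoxb6, Hoxb7, Hoxb9, Hoxb13, Hoxc4, Hoxc6, Hoxc8, Hoxd3 and Hoxd9. Hoxa3, Hoxa7 and Hoxb6 had 3 sites each.

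The tags behind each site were few, here as at all deposited sites. In 300 bp around their centres the 24 sites held 74 wild-type tags, 16 of the knock-out and 26 of the input, and single sites 1 to 5 wild-type tags. The sites were called on the wild-type library, and these 74 unshifted tags were 8.53% of its tags in the clusters. The knock-out ChIP was not used for the calls, and its ratio over input at the sites was 0.806 (0.404 to 1.56), against 1.12 (1.10 to 1.14) at all deposited sites. Per site this was a mean of 3.08 wild-type, 0.667 knock-out and 1.08 input tags, against 3.26, 0.769 and 0.900 over all deposited sites. No knock-out tag was found at 14 sites (58.3%) and no input tag at 12 (50.0%), against 58.3% and 53.6% of all deposited sites. In 300 bp to each side of the centre, with tags moved by 75 bp toward the fragment's middle, the sites held 5 to 8 wild-type tags. Together these were 141 wild-type tags, 31 of the knock-out and 61 of the input. In this wider window 11 sites (45.8%) had no knock-out tag and 5 (20.8%) no input tag, against 45.1% and 31.1% of all deposited sites. In the 300 bp window, input tags outnumbered wild-type tags at 3 sites, in the Hoxa5 UTR (4 wild-type tags, 2 of the knock-out and 7 of the input), in the Hoxa7 intron (4, 0 and 6) and upstream of Hoxb9 (1, 0 and 2).

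Among the 10 sites printed above, the site between Hoxb3 and Hoxb2 had the most wild-type tags in the unshifted 300 bp, with 5 and none of the other libraries. In the wider window with shifted tags it had 6 wild-type tags, 0 of the knock-out and 2 of the input. There the Hoxa10 intron site had 8 wild-type tags and no others, the Hoxb6 UTR site 7, with 1 of the knock-out and 4 of the input, and the site between Hoxc12 and Hoxc11 also 7, with 0 and 1. The site between Hoxb3 and Hoxb2 lay 1975 bp upstream of the start of Hoxb2, a gene of the hindbrain. In the unshifted 300 bp, the sites in the Hoxa6 coding exon and 4405 bp upstream of Hoxb4 each had 4 wild-type and 0 other tags. Those in the Hoxa9 UTR and the Hoxa10 intron had 3 and no others. The Hoxb6 UTR site had 4 wild-type tags, 1 of the knock-out and 0 of the input. The site between Hoxc12 and Hoxc11 had 4, 0 and 1, and that in the Hoxc4 intron 4, 0 and 2. At 2 sites around Hoxc8, a gene of the thoracic skeleton, the knock-out ChIP kept tags where the input had none. The intron site had 4 wild-type and 3 knock-out tags, and the site 3088 bp upstream had 3 and 4. In the wider window these were 6 and 7, with 2 input tags, and 6 and 6, with 1 input tag. With such counts no difference between sites is detectable.

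Of all 24 sites, 9 were intergenic, 10 in introns alone, 4 in a UTR and 1 in a coding exon. Distances were taken to the outermost annotated start of each Hox gene, without its internal starts. The median distance to the nearest of these was 2953 bp, and 3 sites lay within 1 kb.

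**Figure D4:**
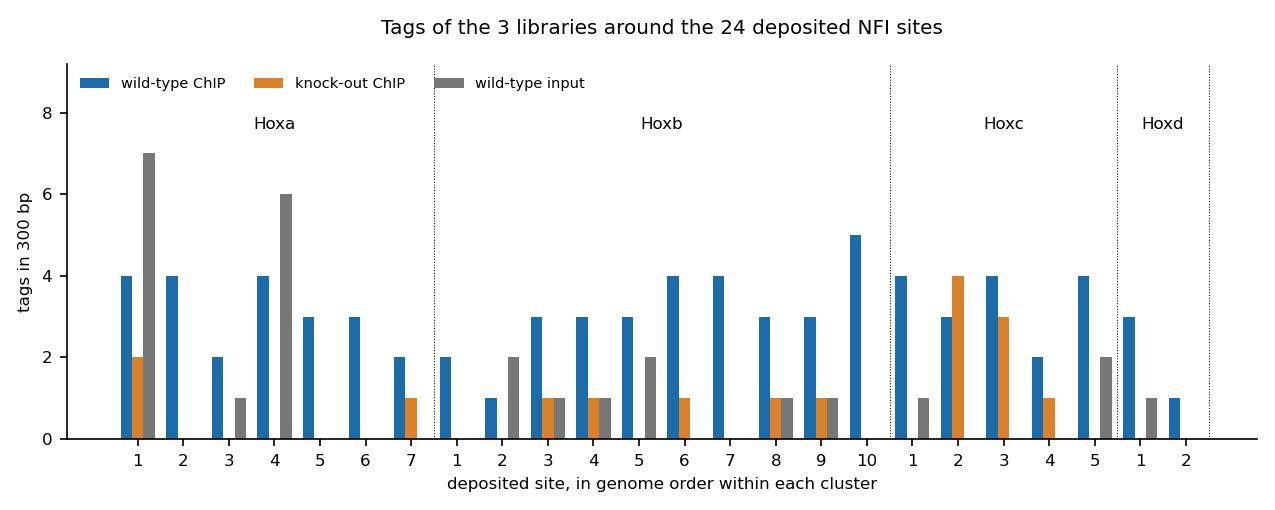
Tags of the 3 libraries in 300 bp around the 24 deposited sites (vertical axis), in genome order within each cluster. Wild-type counts run from 1 to 5, and input counts exceed them at 3 sites, the first and the fourth of Hoxa and the second of Hoxb.

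Few of the sites sat on a recognisable NFI sequence. The NFI palindrome, TTGGCA and TGCCAA with a gap of 3 bases, was matched nowhere in the Hox intervals with 0 or 1 mismatches, which allows up to 7.61 per Mb, and the genome has 2.28 per Mb with 1 mismatch. With up to 2 mismatches there were 11 matches, all with 2, or 22.7 per Mb (11.3 to 40.6), against 41.3 in the genome. In 300 bp around these 11, the wild-type ChIP had 8 tags, the knock-out ChIP 15 and the input 13, which were 1.85 (0.799 to 3.65), 3.71 (2.08 to 6.12) and 2.46 (1.31 to 4.20) times the genome average. In the 300 bp centred on a site, the arm TTGGCA alone was found at 3 of the 24 deposited sites (12.5%), against 18.6% of all deposited sites. These 3 matches are printed with 7 neighbouring bases on each side, the arm in capitals, on the strand that reads TTGGCA, since they are the only full arms found there.
Hoxa9 UTR site, 33 bp left of its centre, chr6:52173118-52173123, plus strand: attttatTTGGCAaaagtta
site upstream of Hoxa11, 9 bp left of its centre, chr6:52197040-52197045, minus strand: cttttctTTGGCAttgtgct
Hoxc6 intron site, 142 bp left of its centre, chr15:102835531-102835536, plus strand: ctgtgctTTGGCAttcccaa
They had 3, 2 and 2 wild-type tags, 0, 1 and 1 knock-out tags, and no input tag.

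The H3K27me3-rich regions that the authors deposited cover the clusters entirely. A single H3K27me3-rich region held each cluster and reached beyond both of its ends, 762 kb long at Hoxa, 727 kb at Hoxb, 460 kb at Hoxc and 235 kb at Hoxd, against a median of 38.8 kb genome-wide. Coverage was thus 100% of the Hox bases, against 40.3% of the genome. H3K4me3-rich regions covered 88.4%, against 18.8%, in single regions of 127 kb at Hoxa, 148 kb at Hoxc and 123 kb at Hoxd, where the genome's median is 16.5 kb. The uncovered bases were nearly all in Hoxb, of which 67.8% was covered. Windows of 38 of 38 Hox genes lay wholly in H3K27me3-rich regions (against 33.8% of all genes), 35 in H3K4me3-rich regions (against 18.5%) and 35 in both (92.1%, against 10.6%). The exceptions were Hoxb1, Hoxb2 and Hoxd1.

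H3K36me3-rich regions covered 67.2% of the Hox bases, against 19.4% of the genome, as 1 region per cluster that stopped short of the 5′ end in all 4 and also of the 3′ end in Hoxb and Hoxd. Wholly inside were 24 of 38 gene windows (63.2%, against 23.6% of all genes), namely 7 of 11 anterior, 11 of 11 central and 6 of 16 posterior genes. The 10 genes without any such overlap were Hoxb1 and Hoxd1 at the anterior end, and Hoxa13, Hoxb13, Hoxc10, Hoxc11, Hoxc12, Hoxc13, Hoxd12 and Hoxd13 at the posterior end. All 3 marks together held 24 genes (against 4.94%). Domains of the nuclear lamina, mapped by others in human fibroblasts and transferred to the mouse, covered 8.59% of the Hox bases, against 40.1% of the genome.

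Pooled over the clusters, all 3 libraries had more tags per base inside the H3K36me3-rich part than outside it, which did not hold in every cluster. The wild-type ChIP was at 1.47 times the genome average inside (1.36 to 1.59) and 1.15 outside (1.01 to 1.31), the knock-out ChIP at 1.38 and 1.07, and the input at 2.48 and 2.05. For the input, Hoxb was at 2.27 inside and 1.20 outside and Hoxa at 2.94 and 2.90, while Hoxc was at 2.10 and 2.30 and Hoxd at 2.52 and 3.11. The wild-type ratio over input was 0.594 inside (0.539 to 0.654) and 0.561 outside (0.479 to 0.654). It was lower inside in Hoxb, 0.706 against 0.880, and higher inside in Hoxa (0.570 against 0.326), Hoxc (0.631 against 0.541) and Hoxd (0.436 against 0.384), and the intervals inside and outside overlap in each cluster. With GC correction the pooled ratio was 0.859 inside (0.780 to 0.946) and 0.724 outside (0.619 to 0.846). In Hoxb the corrected values were 1.06 inside (0.896 to 1.24) and 1.03 outside (0.772 to 1.37), so the lower value inside was not kept. In posterior windows the ratio was 0.418 inside (0.335 to 0.518) and 0.349 outside (0.272 to 0.444). In anterior windows it was 0.689 inside (0.596 to 0.796) and 0.354 outside (0.215 to 0.563), the latter from 24 wild-type and 83 input tags, mostly of Hoxb1 and Hoxd1. Outside H3K4me3-rich regions, 56.1 kb with a GC content of 45.6%, the ratio was 0.873 (0.636 to 1.19), against 0.567 inside them (0.521 to 0.618). With GC correction these were 0.972 (0.708 to 1.33) and 0.813 (0.746 to 0.884), whose intervals overlap. Outside these regions the input was at 1.12 times the genome average, against 2.50 times inside.

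Tags at the microRNA genes were counted in 2 kb around each hairpin. Mir10a, in Hoxb4 (chr11:96178479-96178588), had 5 wild-type tags, 3 of the knock-out and 0 of the input, and Mir10b, in introns of Hoxd3 and Hoxd4 (chr2:74564127-74564194), 1, 4 and 5. Mir196a-1, upstream of Hoxb9 (chr11:96126478-96126579), had 5, 0 and 7, Mir196a-2 in Hoxc (chr15:102803781-102803865) 2, 1 and 7, and Mir196b, in the annotated Hoxa9 (chr6:52180080-52180164), 1, 2 and 13. No order of the libraries was shared by the 5 genes, and the counts are too low for more. Of 80 microRNA loci that the authors listed with an NFI site inside, 1 lies in a Hox cluster, mmu-mir-10b, and none of their 12 upstream or 3 downstream loci does. The listed locus spans chr2:74550050-74564202, and its single site at chr2:74553344-74553359 lies in a Hoxd3 intron, 10809 bp from the hairpin, with 1 wild-type tag and no tag of the others.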

How the data were processed

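Uniquely mapped reads of 3 libraries, 1 per condition and without replicates, were analysed. The authors mapped reads of 35 or 36 bases with ELAND to mm9 (NCBI build 37) and deposited the position, strand and match code of each read, without normalization, with runs pooled (3 runs of each ChIP and 2 of the input). They also deposited NFI sites, called with ChIP-peak on the wild-type library alone (a threshold of 5 tags in 300 bp, tags shifted by 75 bp), and boundaries of histone methylation-rich regions made with ChIP-PART from published fibroblast data. The settings of ChIP-PART are not given in the sources used here.

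From these positions, the 5′ end of each read on the 19 autosomes and both sex chromosomes was counted as a tag, at most 1 per position and strand. The libraries held 14358325, 16330049 and 12029975 reads. Genes were taken from GENCODE vM1 on the same build, and the genome average is over 2558509480 bases other than N. Ratios were scaled to library totals with exact binomial intervals, densities have Poisson intervals, and class contrasts a normal approximation. A gene was tested with at least 20 tags in both libraries together. Expected tags came from 5 kb bins in GC classes of 2%, without bins of over 200 tags. The ratio code was tested on simulated data.

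The member genes, gene lists and comparisons were chosen with earlier results of these data known. One Hox gene of the annotation is not reported here. Named with values were, per cluster, the first and last gene, those with the highest and lowest ratio and those with a site, and the other members by their tags; named sites were the first 10 by wild-type tags, sites at or above 5 input tags left out, with ties by fewest input tags, then genome order. Alternatives covered counting, mapping, runs, scaling, GC content, windows, thresholds and interval ends. Counting used pandas 2.3.3, Numba 0.67.0 and NumPy 2.4.6 in Python 3.11.15, intervals SciPy 1.17.1, and plots matplotlib 3.10.9.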

Additional observations from a re-analysis of the deposited data

How the results depend on the processing

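No paired analysis was possible because each condition has 1 library. Across the Hox intervals, the wild-type ChIP over input was 0.531 with every uniquely mapped tag counted, 0.536 with tags without mismatch and 0.816 with expected tags from bins of the same GC content. The knock-out ChIP over input was 0.731 with GC correction and 0.595 without the 5 bins with the most input tags. With GC correction the wild-type ratio of Hoxb passed 1, at 1.03. Knock-out over wild-type kept an interval that includes 1 in the runs and scalings tried, but not with GC correction, at 0.895 (0.811 to 0.988). Leaving out each of the 8 sequencing runs in turn moved the wild-type ratio between 0.546 and 0.615, the knock-out ratio between 0.510 and 0.574, and their quotient between 0.925 and 0.982. It moved posterior over anterior between 0.531 and 0.697 in the wild-type ChIP and between 0.510 and 0.671 in the knock-out ChIP, and the count of genes between 27 and 29 in both. The ends of both posterior over anterior ranges came from leaving out an input run, and both ratios share the input. Leaving out a wild-type run moved the wild-type value only between 0.569 and 0.632.

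The number of Hox genes below the line in the wild-type ChIP was 12 with GC correction and 15 with a fold of 2. For a fold of 2 the share of all genes was not computed. Posterior over anterior, pooled over the clusters, stayed below 1 in the alternatives run, while that of Hoxd alone in the knock-out ChIP was 1.07 with GC correction. Leaving out a cluster, sharing no bases between classes and leaving out 300 bp around the deposited sites were chosen after seeing the data, and without Hoxa the knock-out value was 0.719. The density of sites was 0.206 per 100 kb when sites needed 5 wild-type tags in 300 bp without a shift. In the clusters 1 of 24 sites met this criterion, against 4441 of all 39807 deposited sites. A higher density than in the genome was thus not shown under it. H3K4me3-rich coverage was 85.8% with 10 kb added on both sides. Of 180 ratios of single clusters under alternatives, 171 stayed within the counting interval of the main value, 8 moved out of it and 1, that of Hoxb above, passed 1 from an interval that excluded it. The 171 include ratios that could not change, since leaving out a run of one library does not touch ratios without that library. Their number is therefore no measure of stability. Knock-out over wild-type of single clusters, whose main intervals include 1, also passed 1 in Hoxb with every tag (1.00) and in Hoxd with every tag (0.948) and without wild-type run 2 (0.982). Its interval excluded 1 in Hoxb and Hoxc with GC correction, as given above. In Hoxa knock-out over wild-type was 1.16 with every tag, against a main value of 1.05 (0.866 to 1.28). Repeats of a read then entered as separate counts, which narrows the interval. The interval with every tag therefore cannot decide whether Hoxa differs from 1. Depth limits what single genes and sites show, since a gene holds 4 to 126 wild-type tags and a site 1 to 5.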
